A study of Bos taurus with 16 samples.

Results

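The proteasome is the barrel-shaped protease that degrades ubiquitin-tagged proteins in the cytosol and nucleus. Its core particle is built of alpha rings around beta rings that carry the active sites, and a regulatory particle of ATPases and non-ATPase subunits binds, unfolds and admits the substrate. In cells exposed to interferon, and in white blood cells, the inducible subunits PSMB8, PSMB9 and PSMB10 replace the constitutive catalytic subunits to form the immunoproteasome, whose peptides are loaded on MHC class I molecules. In early embryos the proteasome is known for removing maternal proteins. Members were all gene names of the form PSM followed by a letter from A to G and a number, with each locus entered once, which gave 48 of 22358 loci. Of these, 46 encode subunits, activators, an inhibitor or dedicated chaperones of the proteasome. The other 2 carry the name PSMC3IP, a meiotic recombination protein that shares only the prefix, and are described apart.

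Blastocysts came from superovulated, artificially inseminated Holstein cows fed from calving until flushing on a diet whose metabolizable protein held 1.9% methionine (control) or, with rumen-protected methionine added, 2.4% (methionine-rich). The 8 cows, 4 per treatment, had been selected for the number and quality of their embryos, and each gave 2 pools of expanded blastocysts whose RNA was amplified before sequencing. The labels call the tissue IVF embryos, whereas the study's methods describe embryos conceived by insemination and flushed from the uterus. Control pools held 1 to 2 blastocysts and methionine-rich pools 1 to 4, so the treatments also differed in pool size. Pools are named by treatment letter, cow and pool, from C1.1 to C4.2 and from M5.1 to M8.2. The 2 pools of a cow share the dam and are not independent, although edgeR and DESeq2 treat them as separate samples.

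Total counts ranged from 5624126 to 7826542 in the 15 pools compared, with a median of 7257007. The total was 1745048 in pool C3.2. That pool was left out of the comparison, following the study's methods, and is described at the end. A floor of 3 counts corresponded to between 0.383 and 0.533 CPM, the count scaled to the pool total, in the 15 pools. Markers of the trophectoderm (KRT8, KRT18, GATA3, TFAP2C, TEAD4), of the inner cell mass (POU5F1, SOX2, KLF4, NANOG) and of the primitive endoderm (GATA6, PDGFRA) had counts in every pool. NANOG lay below 3 counts in some of them, at 1 count in C4.1 and 2 in M6.1 and C3.2. Other markers of these lists were uneven: CDX2 was at 0 in C3.2, C4.1, M8.1 and M8.2, and SOX17 in all 16 pools. GATA4 had between 0 and 3 counts, and LIN28B, IFNT2 and PAG2 were at 0 in some pools. In pools of whole embryos, fewer cells of a type and less RNA per cell cannot be told apart.

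No proteasome gene passed the test for a difference between the treatments. Of the 44 loci with enough counts to be tested, 0 passed edgeR's exact test (called at FDR under 0.10 with a change of 2-fold or more), where 1.05% of all 10519 loci tested did. Calls over all loci were higher in control for 0.77% and higher in methionine-rich pools for 0.276%, and with the pools of each cow summed 0.742% of loci and 0 members were called. The smallest unadjusted p of a member was 0.164, for PSMD5 (FDR = 0.856, edgeR's exact test). At an unadjusted p under 0.05 the count of members was 0 by the exact test and by edgeR's quasi-likelihood test. It was also 0 by DESeq2 and by limma's voom, in which the cow was a random effect. Over all 10519 loci the count was 898 (8.54%) by the exact test, 909 by the quasi-likelihood test, 780 by DESeq2 and 421 by voom. The log2 fold change, methionine-rich over control, had a median of -0.05 over the 44 loci and of -0.05 over all loci. It lay above 0 for 18 members and below 0 for 26.

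How closely the data bound a difference varied with the gene. A difference of at least 2-fold was estimated for 3 members, PSMB8, PSMB10 and PSMD5, against 24.7% of all loci, and the other 41 lay within 2-fold. The 95% interval of voom, which allows for the cow, stayed within 2-fold in both directions for 25 of the 44 members (56.8%, against 15.6% of all loci). For the remaining 19 a 2-fold difference is within the interval. Among the 39 members with at least 10 counts in every pool, the log2 fold change ranged from -0.57 to 0.54. These contrasts with all loci narrowed at that count level. An estimate within 2-fold was then found for 100% of members and 96.28% of all loci, and an interval within 2-fold for 64.1% and 32.98%. No member had cow means that separated the treatments without overlap, which 2.21% of all loci had.

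**Figure D1:**
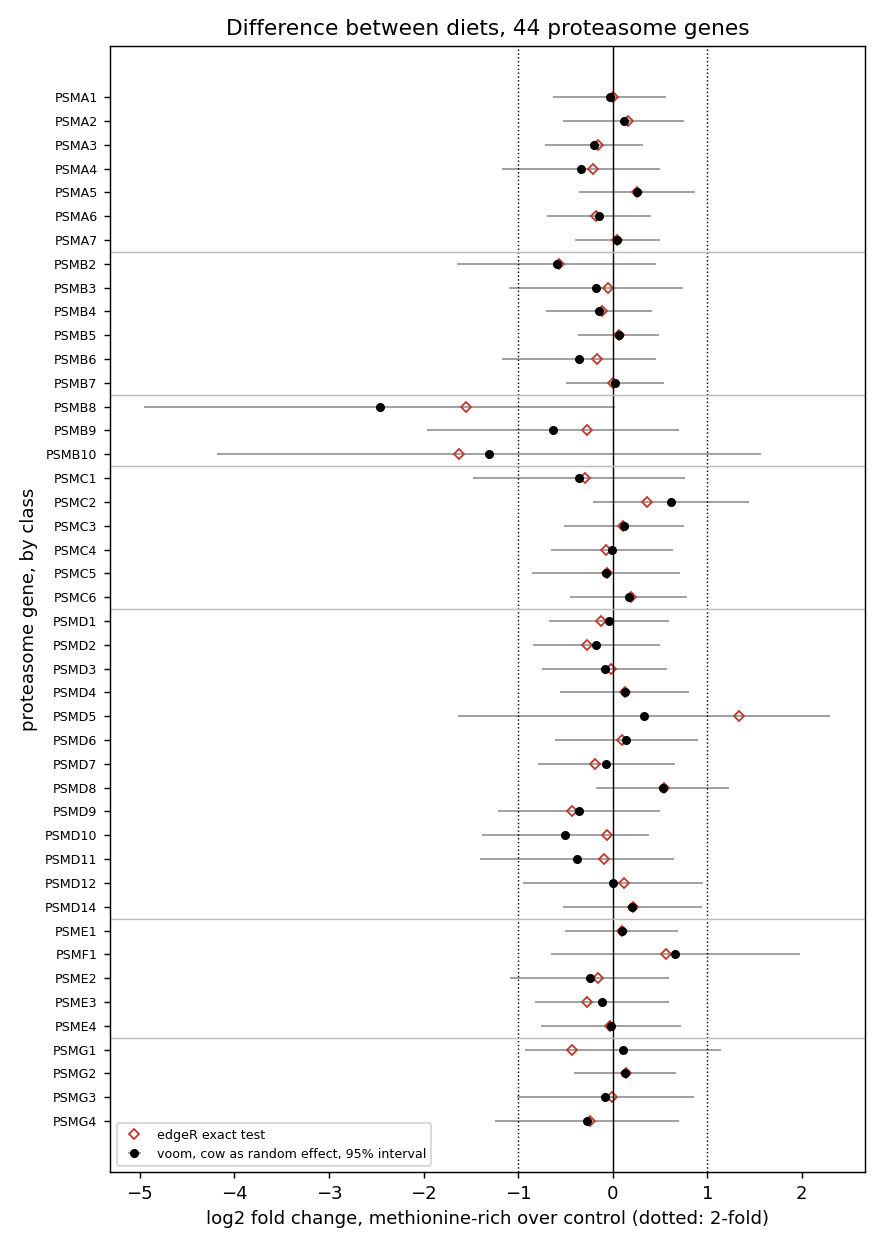
Log2 fold change of methionine-rich over control (horizontal axis) for the 44 proteasome genes tested, by class (vertical axis): open diamonds are edgeR's exact test, points and lines are limma's voom with its 95% interval, and dotted lines mark a 2-fold difference. Most genes lie near 0, and the widest intervals belong to PSMB8, PSMB10 and PSMD5.

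Proteasome transcripts together took a narrow share of each pool. The 46 loci summed to between 0.437% and 0.712% of the counts (median 0.515%) in the 7 control pools and to between 0.479% and 0.623% (median 0.527%) in the 8 methionine-rich pools. The control pools reached further in both directions, and the methionine-rich range lay inside theirs. Averaged over cows, the log2 difference of the summed CPM was -0.01, with an SD between cows of 0.08. Pool C2.2 had the highest sum, 7123 CPM, and C2.1 of the same cow the lowest, 4369 CPM.

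**Figure D2:**
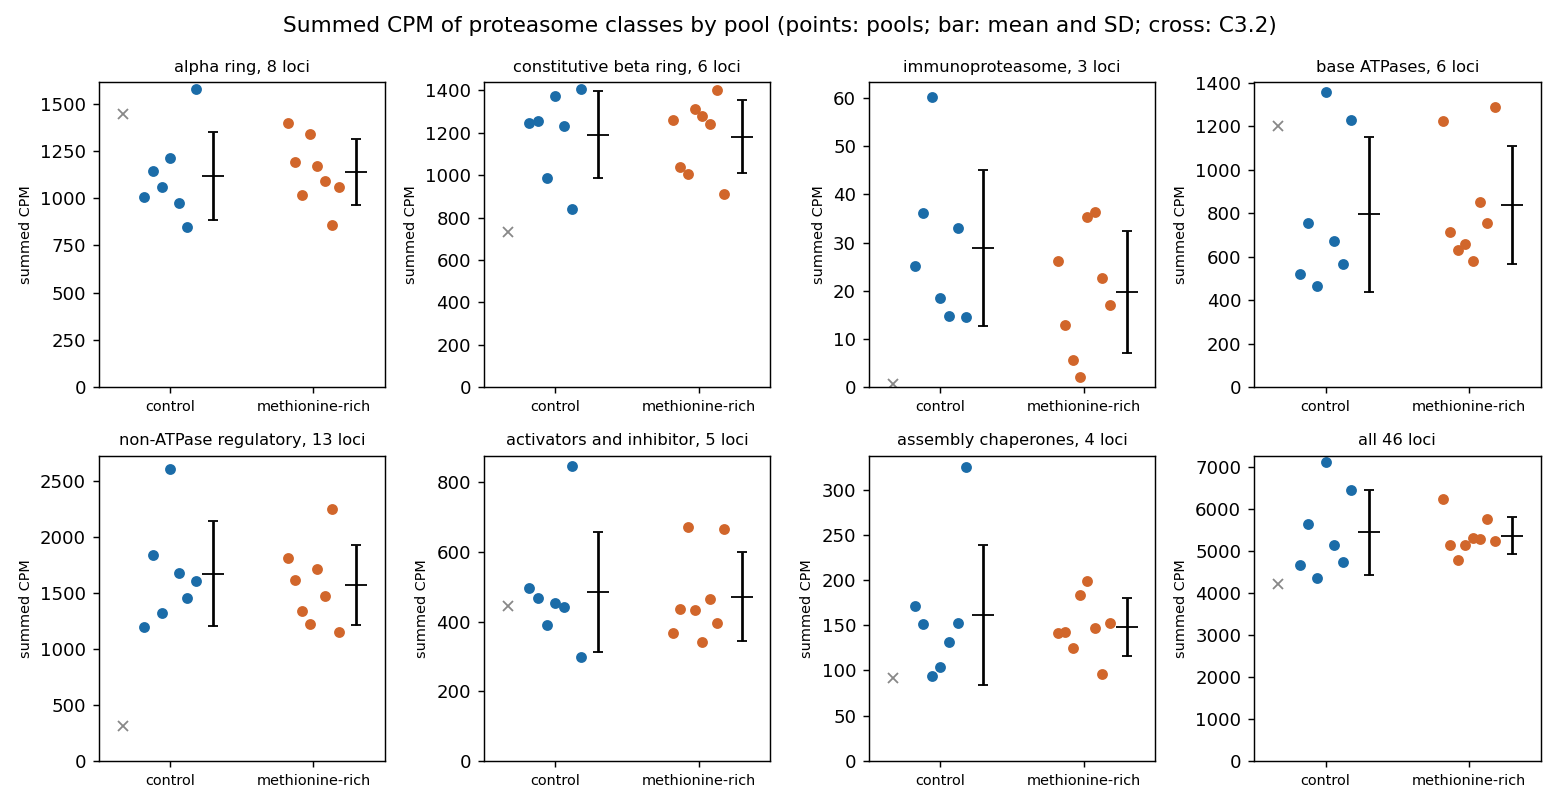
Summed CPM of each proteasome class and of all 46 loci (vertical axes, from 0) in each pool, by treatment (horizontal axis). Points are pools, the bar and whiskers are the mean and SD of the 7 control and 8 methionine-rich pools, and the cross is pool C3.2. The treatments overlap in every panel. The immunoproteasome panel holds the widest relative spread, from 2.19 to 60.3 CPM.

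The alpha ring, PSMA1 to PSMA7, forms the outer gate of the core particle. Its sum, with the germ cell subunit PSMA8 included, was 1118 ± 234 CPM in control pools (SD, n = 7) and 1141 ± 174.5 CPM in methionine-rich pools (SD, n = 8). The log2 fold changes of the 7 genes ranged from -0.21 for PSMA4 to 0.26 for PSMA5, and 6 of the 7 had a voom interval within 2-fold. PSMA7 ranged from 285 to 605 CPM (median 472) in control pools and from 313 to 713 CPM (median 426) in methionine-rich pools. Its lowest value was in C4.1 and its highest in M5.1, and the groups overlapped (log2 fold change 0.04, edgeR's exact test, FDR = 1.0). PSMA8, which takes the place of PSMA7 in germ cells of the testis, was too low to be tested: it had 24 counts in C1.1, which is 70.6% of its counts, and between 0 and 7 in every other pool.

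The beta ring holds the active sites. Its constitutive catalytic subunits are PSMB5, with chymotrypsin-like activity, PSMB6, with caspase-like activity, and PSMB7, with trypsin-like activity. PSMB5 ranged from 379.5 to 753 CPM (median 666) in control pools and from 491.5 to 808 CPM (median 677) in methionine-rich pools. It had the smallest spread of all members, with a coefficient of variation of 17.98% over the 15 pools, and its log2 fold change was 0.07 (voom's 95% interval -0.37 to 0.49).

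PSMB6 was less even. It ranged from 103 to 272 CPM, with a median of 217, in control pools and from 56.1 to 328 CPM, with a median of 164, in methionine-rich pools, so the lowest and the highest pool, M6.1 and M8.1, were both methionine-rich. Its log2 fold change was -0.17 (FDR = 1.0, edgeR's exact test), with a voom interval of -1.17 to 0.46. For PSMB7 the range was 101 to 359 CPM (median 187) in control pools and 136 to 261 CPM (median 197) in methionine-rich pools. The control range enclosed the methionine-rich range, and the log2 fold change was 0.01 (voom interval -0.50 to 0.54). Among the structural beta subunits PSMB2, PSMB3 and PSMB4, PSMB2 had the largest difference, at 6.19 ± 2.37 CPM in control pools (SD, n = 7) and 4.22 ± 1.72 CPM in methionine-rich pools (SD, n = 8), with a log2 fold change of -0.57 (FDR = 0.994, edgeR's exact test). Its cow means were 5.52 to 7.002 CPM in control cows and 3.28 to 5.83 CPM in methionine-rich cows, and they overlapped only through cow 5. The log2 fold changes of PSMB3 and PSMB4 were -0.05 and -0.11. The structural subunit PSMB1 and the lid subunit PSMD13 were not analysed here.

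The immunoproteasome genes had a median coefficient of variation of 145% over the 15 pools, the highest of the classes. PSMB8, the inducible counterpart of PSMB5, had 41, 23, 39, 7, 0, 15 and 7 counts in control pools C1.1, C1.2, C2.1, C2.2, C3.1, C4.1 and C4.2. In methionine-rich pools M5.1 to M8.2 it had 68, 0, 1, 0, 0, 3, 2 and 1 counts. Thus 6 of the 7 control pools lay above the floor of 3 counts, while 7 of the 8 methionine-rich pools lay at or below it and the 8th, M5.1, was the highest of all. The log2 fold change was -1.55 (FDR = 0.934, edgeR's exact test; voom interval -4.95 to 0.02), and without cow 5 it was -4.00, still not called.

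PSMB9 replaces PSMB6 in the immunoproteasome. Its counts were 148, 152, 170, 111, 106, 184 and 39 in the control pools in the same order, and 120, 31, 38, 9, 273, 236, 119 and 125 in the methionine-rich pools. Both treatments held high and low pools, and the 2 pools of cow 7 were the highest, at 34.9 and 35.9 CPM. The log2 fold change was -0.27 (FDR = 1.0, edgeR's exact test; voom interval -1.96 to 0.70), and it was -1.03 without cow 7 and 0.08 without cow 6.

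PSMB10, which replaces PSMB7, had at least 10 counts in only 5 of the 15 pools. The control pools had 1, 66, 130, 1, 4, 1 and 67 counts and the methionine-rich pools 2, 66, 2, 4, 3, 0, 42 and 0. The 5 high pools came from different cows, 3 control and 2 methionine-rich, and the other pool of each of these cows had at most 2 counts. The log2 fold change was -1.63 (FDR = 0.897, edgeR's exact test; voom interval -4.18 to 1.57), and it was -0.64 without C2.1, -0.89 without cow 2 and -2.30 without cow 5.

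The sum of the 3 immunoproteasome genes was 28.9 ± 16.2 CPM in control pools (SD, n = 7) and 19.8 ± 12.7 CPM in methionine-rich pools (SD, n = 8). On cow means the log2 difference was -0.71 with an SD between cows of 1.01, and it was -0.44 without C2.1. With each cow left out it ranged from -1.10 (without cow 7) to -0.09 (without cow 6). The highest sum, 60.3 CPM, was again in C2.1. This pool also stood apart in white blood cell markers. The 14 loci of that list summed to 2459 CPM in C2.1, against 36.9 to 94.6 CPM in the other control pools compared. They summed to 30.6 to 66.6 CPM in methionine-rich pools. In C3.2, outside the comparison, their sum was 409 CPM, with 278 counts of PTPRC and 356 of LCP2. In C2.1 none of the 14 was at 0, against 3 to 9 elsewhere among the 15 pools, and LAPTM5, TYROBP and NKG7, with 6969, 2122 and 2698 counts in C2.1, were at 0 in every methionine-rich pool. Not all markers followed: PTPRC had 18 counts in C2.1 and 48 in M8.1, LCP2 had 3 and 45 in M8.2, RAC2 had 46 and up to 139 elsewhere, and CD48 had 200 and between 83 and 323 in methionine-rich pools. The part of these cells in the immunoproteasome values was not tested. The M5.1 value of PSMB8 and the M7.1 and M7.2 values of PSMB9 stood beside marker sums of 30.6, 50.2 and 49.4 CPM, in the range of the other pools.

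**Figure D3:**
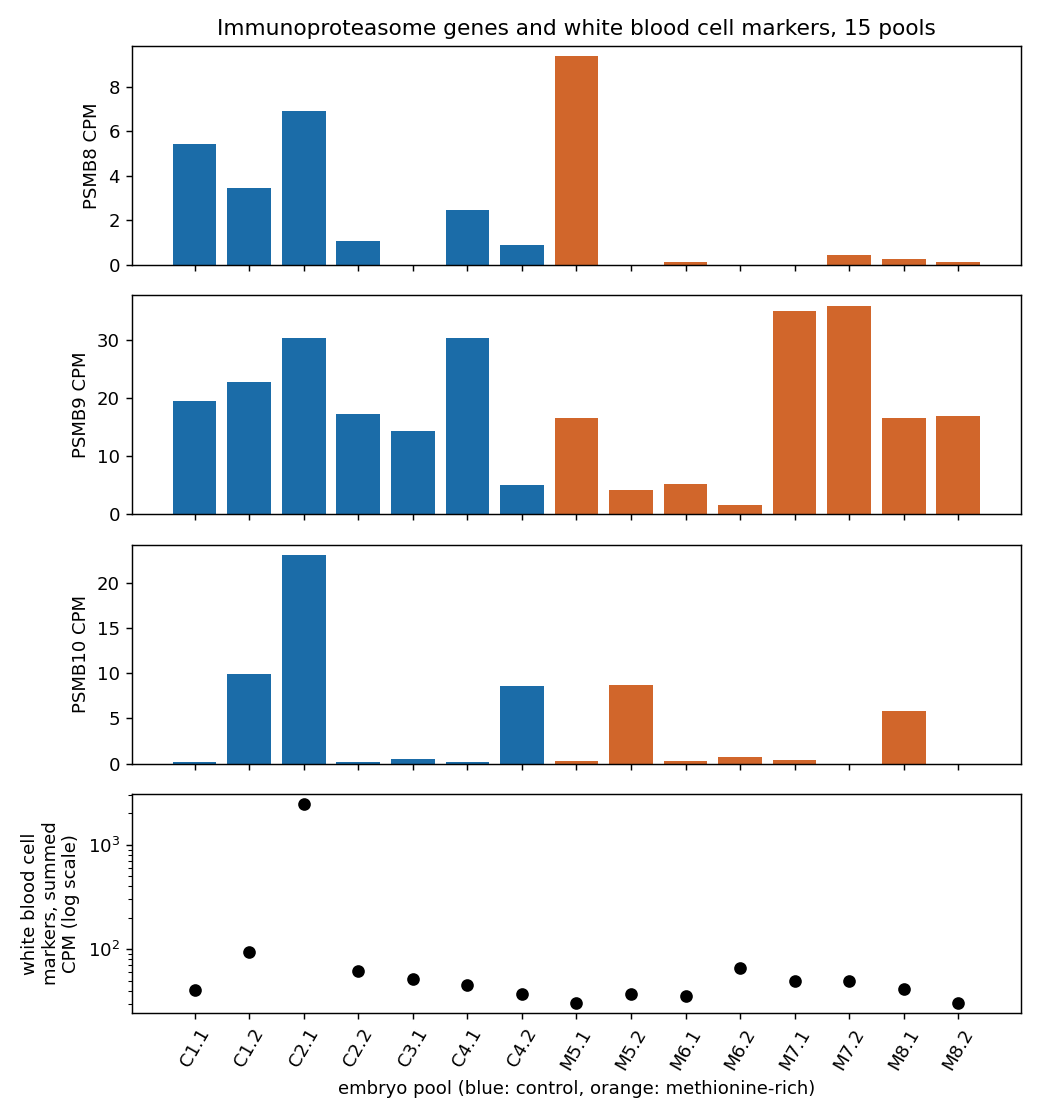
CPM of PSMB8, PSMB9 and PSMB10 (bars, upper panels, from 0) and the summed CPM of white blood cell markers (points, lower panel, log scale) in each of the 15 pools (horizontal axis; blue control, orange methionine-rich). The bars of the 3 genes peak in different pools: PSMB8 in M5.1, PSMB9 in M7.2 and PSMB10 in C2.1, where the marker sum reaches 2459 CPM.

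Relative to their constitutive counterparts, the inducible genes varied from pool to pool. Counts of PSMB9 were between 1.85% and 16.7% of those of PSMB6 in control pools and between 0.933% and 18.2% in methionine-rich pools. Counts of PSMB10 were at most 5.08% of those of PSMB7, apart from 15.4% in C2.1. These ratios are not corrected for transcript length and serve to compare pools, not genes. The thymus subunit PSMB11, made in cortical epithelium of the thymus, was at 0 in all 16 pools. In RefSeq's ARS-UCD2.0 annotation PSMB11 neighbours PSMB5, whose counts were high in every pool, and PSMB8 and PSMB9 flank the peptide transporter gene TAP1, which had at most 17 counts in any pool.

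The base ATPases PSMC1 to PSMC6 pull the substrate into the core. Their sum was 795 ± 356 CPM in control pools (SD, n = 7) and 838.5 ± 272 CPM in methionine-rich pools (SD, n = 8), with 4 pools, C2.2, C4.2, M5.1 and M8.2, at 1227 CPM or above and the others at 850.5 CPM or below. Log2 fold changes ranged from -0.29 for PSMC1 to 0.36 for PSMC2. PSMC2 had a range of 43.3 to 458 CPM (median 124) in control pools and of 94.2 to 299 CPM (median 199.5) in methionine-rich pools. The control range enclosed the methionine-rich one, since C4.2 held the highest value and C1.2 the lowest (FDR = 0.994, edgeR's exact test; voom interval -0.21 to 1.44).

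The 13 non-ATPase regulatory genes include the scaffold subunits PSMD1 and PSMD2, the ubiquitin receptor PSMD4, the deubiquitinase PSMD14 and the lid subunits around it. Their sum was 1671 ± 467 CPM in control pools (SD, n = 7) and 1571 ± 358 CPM in methionine-rich pools (SD, n = 8). Apart from PSMD5, their log2 fold changes ranged from -0.43 for PSMD9 to 0.54 for PSMD8. For PSMD14 it was 0.22, for PSMD4 0.13, for PSMD1 -0.13 and for PSMD2 -0.27, and none passed the test. The lid subunits PSMD3, PSMD6, PSMD7 and PSMD12 lay between -0.18 and 0.12.

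PSMD8, a lid subunit, had the smallest FDR of all members by the quasi-likelihood test (FDR = 0.715). It ranged from 13.2 to 34.2 CPM (median 22.4) in control pools and from 21.4 to 48.5 CPM (median 29.6) in methionine-rich pools. The pools overlapped through C1.1, C1.2, C2.1 and C2.2, and the cow means overlapped through cow 1, at 28.5 CPM, and cow 6, at 27.0 CPM. Its log2 fold change was 0.54 (FDR = 0.900, edgeR's exact test; voom interval -0.18 to 1.23). Without cow 1 or without cow 6 its cow means no longer overlapped, which held for 4.67% and 3.9% of all loci in those settings.

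The chaperones of base assembly, PSMD5, PSMD9 and PSMD10, had values that rested on single pools. PSMD5 had 268 counts in M6.1, which is 49.5% of its counts over the 15 pools. It ranged from 0.464 to 6.04 CPM (median 2.64) in control pools and from 0.135 to 36.5 CPM (median 3.0) in methionine-rich pools. Apart from M6.1 the pools of both treatments lay at 8.20 CPM or below, and the log2 fold change of 1.33 became 0.05 without cow 6 and 0.01 by DESeq2, which can replace outlying counts. PSMD9 ranged from 17.1 to 110 CPM (median 34.3) in control pools and from 10.7 to 46.5 CPM (median 28.8) in methionine-rich pools. Its highest value was in C4.2, and the log2 fold change of -0.43 (FDR = 0.975, edgeR's exact test) became -0.08 without cow 4. PSMD10, known as gankyrin, was at 456.5 CPM in M7.1 and at 24.2 to 119 CPM in the other methionine-rich pools, below or within the control range of 115 to 192 CPM. Its log2 fold change was -0.06, and -0.82 without cow 7, not called in either fit.

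PSMD11, a lid subunit, gave an example in the other direction. It had 251 counts in M8.2 and between 1784 and 6759 in the other 14 pools. The neighbouring pool of the same cow, M8.1, held its highest value, 941 CPM against 33.9 CPM in M8.2. The control pools ranged from 242 to 687 CPM with a median of 454, inside the methionine-rich range, whose median was 420.0 (log2 fold change -0.09, FDR = 1.0 by edgeR's exact test).

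Activators bind the ends of the core in place of the regulatory particle. PSME1 and PSME2, partners in the interferon-inducible activator, ranged from 46.5 to 119 and from 31.0 to 126 CPM in control pools and from 58.8 to 106.5 and from 22.5 to 111 CPM in methionine-rich pools. Their highest control pools differed, C1.1 for PSME1 and C3.1 for PSME2. Neither gene was highest in C2.1, where PSME1 was at 68.6 and PSME2 at 62.6 CPM. The log2 fold changes were 0.10 for PSME1 (voom interval -0.50 to 0.69) and -0.15 for PSME2 (voom interval -1.09 to 0.60).

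PSME3, the nuclear activator, and PSME4, an activator linked to histone degradation, shared their highest control pool. In C4.1, a pool of 1 blastocyst, PSME3 was at 176 CPM and PSME4 at 554 CPM, while the other control pools lay between 41.1 and 85.5 CPM and between 141 and 291 CPM. Methionine-rich pools ranged from 46.5 to 103 CPM for PSME3, with a median of 56.3, and from 115 to 513.5 CPM for PSME4, with a median of 230.5. The log2 fold changes were -0.27 for PSME3 and -0.03 for PSME4 (FDR = 1.0 each, edgeR's exact test). The inhibitor PSMF1, at low counts, ranged from 1.05 to 6.96 CPM (median 2.10) in control pools and from 1.72 to 8.13 CPM (median 5.94) in methionine-rich pools. High and low pools occurred in both treatments, and the log2 fold change was 0.57 (FDR = 0.9997, edgeR's exact test; voom interval -0.66 to 1.98).

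The chaperones PSMG1 with PSMG2, and PSMG3 with PSMG4, assemble the alpha ring. PSMG1 had 1449 counts in C4.2, which is 186 CPM, against 7.47 to 46.3 CPM in the other control pools and 17.96 to 49.8 CPM in methionine-rich pools. Its log2 fold change of -0.43 changed sign to 0.58 without cow 4 and was not called in either fit. Its partner PSMG2 was the most even of the class, at 65.3 ± 18.5 CPM in control pools (SD, n = 7) and 71.5 ± 12.3 CPM in methionine-rich pools (SD, n = 8). PSMG3 and PSMG4 had log2 fold changes of -0.01 and -0.24. Of the PSMC3IP loci, 1 was at 0 in all 16 pools and the other had 13 counts or fewer in each.

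**Figure D4:**
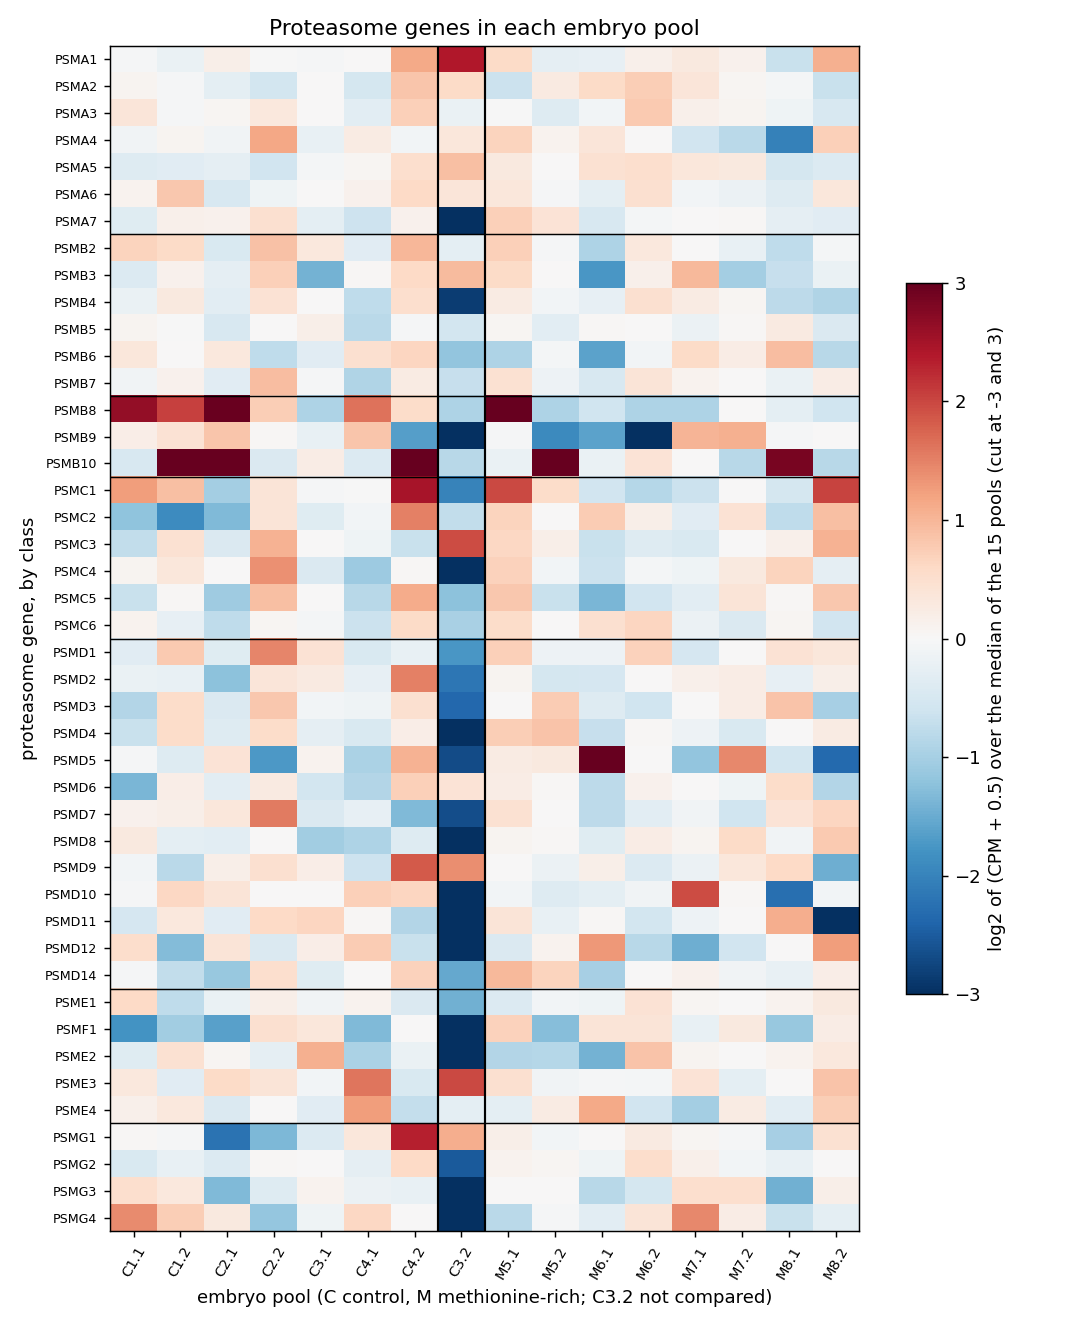
Level of each of the 44 tested proteasome genes (rows, by class) in each pool (columns), as log2 of CPM + 0.5 over the gene's median in the 15 pools compared (colour, limited to -3 and 3). The framed column is C3.2, where 26 genes lie below every other control pool. Elsewhere single strong cells mark PSMG1 in C4.2, PSMD5 in M6.1, PSMD10 in M7.1 and PSMD11 in M8.2, and the PSMB8 and PSMB10 rows are the most uneven.

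The spread between pools of the same cow was about as large as that between cows. The median absolute log2 difference of a member between the pools of a cow was 0.60, and between pools from separate cows within a treatment 0.61, against 0.91 and 0.97 over all loci. The coefficient of variation over the 15 pools had a median of 45.1% for the members and of 80.3% for all loci. Over the members it ranged from 17.98% for PSMB5 to 177% for PSMD5. These contrasts narrowed when loci that fell short of 10 counts in any pool were set aside. The median coefficient was then 43.08% for members and 52.69% for all loci. The median log2 differences were then 0.549 within cows and 0.581 between cows for members, against 0.714 and 0.75 for all loci. C4.2, a pool of 1 blastocyst, held the highest value of 12 of the 44 members (27.3%, against 12.99% of all loci), namely PSMA1, PSMA2, PSMB2, PSMB4, PSMC1, PSMC2, PSMC5, PSMD2, PSMD6, PSMD9, PSMG1 and PSMG2. In the same pool the 5 inner cell mass markers summed to 1740 CPM, against 104.5 to 431 CPM in the other control pools compared. In methionine-rich pools they summed to 144 to 464 CPM. Most of that sum was KLF4, with 12634 counts against at most 2375 in any other pool. POU5F1 was also highest by count in C4.2, at 569, whereas SOX2, at 140 counts, and NANOG, at 188, were higher by count in other pools and LIN28B was at 0. Its trophectoderm markers, 8 loci of which 1 was at 0, summed to 7944 CPM, against 3340 to 7370 and 2514 to 6157 CPM. Most of that sum was KRT18 and KRT8. By count KRT8, GATA3 and TFAP2C were highest in C4.2, at 16443, 585 and 4282. KRT18, at 39700 counts, TEAD4, at 756, and IFNT2, at 26, were higher by count in other pools. CDX2 had 1 count in C4.2, against up to 203 elsewhere, and PAG2 was at 0. The part of the cell types or of the pool size in these values was not tested.

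Other genes of the pathway were read the same way. Of 19 loci for assembly, associated and stress factors, 17 were tested and 0 were called, with a median log2 fold change of 0.04. Among them the maturation factor POMP was at 169 ± 62.1 CPM in control pools (SD, n = 7) and 160 ± 43.1 CPM in methionine-rich pools (SD, n = 8), and NFE2L1, the transcription factor that raises proteasome genes when the protease is inhibited, had a log2 fold change of 0.04. Of the 9 loci for ubiquitin supply and unfolding, 0 were called, with a median of -0.05. RPS27A, which encodes ubiquitin fused to a ribosomal protein, had a log2 fold change of 0.07. Of 10 loci for peptide presentation, 5 were tested and 0 were called, with a median of -1.38. Of these 5, 4 were lower in methionine-rich pools, 1 was within 2-fold, and only 1 had at least 10 counts in every pool. The counts of 0 in these short lists stand beside 1.05% called over all 10519 loci tested. B2M, the light chain of MHC class I, was the only locus of these lists with an unadjusted p under 0.05 by the exact test (log2 fold change -1.38, FDR = 0.342 by edgeR's exact test), and C2.1 held 20129 of its counts, against 824 to 5459 in the other pools.

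In pool C3.2 the proteasome genes fell outside the range of the other control pools more often than inside it. In C3.2 the floor of 3 counts corresponded to 1.72 CPM. There 26 of the 44 members lay below all 7 other control pools (59.1%, against 42.2% of all loci). Another 5 lay above them (11.4%, against 12.1%). The 26 include PSMB10, PSMD5 and PSMF1, whose lowest other control values, 0.132, 0.464 and 1.055 CPM, were under that floor. At this depth their position is not resolved. A locus at 0 in any other control pool cannot lie below the range. At least 10 counts in every pool compared were found for 88.64% of members and 47.25% of all loci. The 59.1% and 42.2% are therefore not matched for count level. PSMC3 was at 1010 CPM and PSMA1 at 780.5 CPM, above the highest other control values of 531 and 324 CPM, whereas PSMA7 was at 30.9 CPM and PSMD11 at 10.3 CPM, below the lowest of 285 and 242 CPM. PSMA1 and PSMA7 belong to the same ring. PSME2 had 1 count and PSMB8 and PSMB10 had 0. With all 16 pools in the fit, 3.16% of all loci were called and 0 of the 44 members.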

How the data were processed

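The authors mapped reads of amplified RNA to bosTau7 with TopHat2 2.0.4, assembled transcripts with Cufflinks 2.0.2 and counted reads per locus with HTSeq, and deposited these counts without normalization, as 22552 rows for 22358 loci in each of 16 pools. Whether strand was used is not given in the sources used here, and reads shared with near-identical copies may be split between loci or lost. Loci with summed CPM of at least 15 were kept (10519), without pool C3.2. In R 4.3.3, treatments were compared with edgeR 4.0.16 (TMM, common then tagwise dispersion, exact test, Benjamini-Hochberg adjustment over all loci), with its quasi-likelihood test, DESeq2 1.42.0 and limma 3.58.1 as alternatives. The code was tested on simulated data. Levels are CPM over the pool total and are not corrected for length. No intervals for single counts are given, since amplified reads are not independent molecules.

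All 46 proteasome loci are accounted for. Named with values were the catalytic, inducible, tissue-restricted, activator and inhibitor genes, the 3 with the highest and the 3 with the lowest median CPM (PSMB5, PSMD11, PSMA7; PSMA8, PSMB11, PSMB10), the 5 with the smallest exact-test p, and any with at least 50% of their counts in 1 pool or cow means that did not overlap. Other genes were named after their values were seen. The members and lists were chosen with earlier results of these data known. All 47 symbols matched RefSeq's table. Cumulus and oviduct markers summed to at most 3.03 CPM. Primitive endoderm markers summed to between 91.4 and 336 CPM in the 15 pools compared and to 520 CPM in C3.2.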

Additional observations from a re-analysis of the deposited data

Results flagged for a closer look

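In 22 of 104 groups of pools tested (21.2%), a single pool stood further from its group than Dixon's criterion allows. For independent, normally distributed values the criterion would flag about 1 in 20 groups. That rate is not a baseline here, since CPM were not transformed and some groups were sums of loci also tested singly. Over all loci 28.4% of groups stood out in this way, and among the 44 proteasome loci 22.7%. Most of the values that stood apart were in control pools, and C4.2 held more of them than any other pool. In C4.2 they were PSMA1 at 324 CPM, PSMA2 at 340 CPM, PSMC1 at 113 CPM, PSMC2 at 458 CPM, PSMD2 at 277 CPM, PSMD9 at 110 CPM, PSMG1 at 186 CPM, PSMG2 at 103.5 CPM and the sum of the assembly chaperones at 325 CPM. In C2.2 they were PSMA4 at 57.4 CPM, PSMC4 at 267 CPM and PSMD7 at 674 CPM, and in C2.1 PSMB10 at 23.1 CPM. In C4.1 they were PSME3 at 176 CPM, PSME4 at 554 CPM and the sum of the activators and inhibitor at 848 CPM.

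Among methionine-rich pools, M6.2 stood apart for PSMA3 at 216 CPM and PSMG2 at 98.5 CPM. M7.1 stood apart for PSMD10 at 456.5 CPM and PSMG4 at 67.8 CPM. PSMB8 in M5.1 was at 9.37 CPM, where the next methionine-rich pool was at 0.456 CPM, and PSMD5 in M6.1 was at 36.5 CPM, where the next was at 8.20 CPM.

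Pool C3.2, outside the comparison, exceeded every other control pool for 5 genes. They were PSMA1 at 780.5 CPM, PSMA5 at 88.2 CPM, PSMB3 at 56.2 CPM, PSMC3 at 1010 CPM and PSME3 at 227.5 CPM.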

How the results depend on the processing

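Over 415 comparisons of a result with an alternative, 400 moved by less than the spread between cows or kept the same count, and 15 moved further. Of the 384 that were log2 values, 47 had the other sign than the reported value, in 14 of 21 results. A direction is therefore not settled for values near 0, nor for some larger ones. PSMG1, at -0.43 as reported, was 0.11 by voom and 0.26 with the blastocyst covariate. PSMD5, at 1.335 as reported, was -0.32 with that covariate. The median of the members, -0.05 as reported, was 0.04 without cow 6. The number of proteasome loci called was 0 under every alternative run, while the number over all loci, 110, ranged from 0 (quasi-likelihood test, voom, the blastocyst covariate, and at least 10 counts in every pool) to 341 (all 16 pools). The median log2 fold change of the members became 0.107 with the number of blastocysts as a covariate in the quasi-likelihood fit. The number of members whose cow means did not overlap, 0, became 1 of 44 (PSMB2, higher in control) with TMM-normalized CPM, against 2.41% of all loci. With each cow left out the number lay between 0 and 2 of 44, against 3.9% to 5.28% of all loci. Without cow 1 it was 2 (PSMD8, PSMD9), against 4.67% of all loci. Without 1 cow it was also 1 for PSMC2 (cow 4), PSMB2 (cow 5), PSMD8 (cow 6) and PSMD10 (cow 7). PSME3 moved to 0.16 with the blastocyst covariate and to -0.81 with all 16 pools, and PSMD5 to -0.32 with the covariate. The cause was not tested. No paired analysis was possible because each cow received 1 treatment and the pool numbers of the treatments share no cow. Pools of a cow were tested as separate samples by the exact test, the quasi-likelihood test and DESeq2, so their p-values measure the spread between pools. Voom took the cow as a random effect, and in another fit the pools of each cow were summed. With 4 cows per treatment and low counts for PSMB8, PSMB10, PSMD5 and PSMF1, a 2-fold difference of these genes lay within voom's 95% interval. The same held for genes with higher counts, such as PSMC2 (-0.21 to 1.44), PSMD10 (-1.38 to 0.38) and PSMD11 (-1.40 to 0.65).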
